A study of Homo sapiens with 16 samples.

Results

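The genes described here are those of the cytosolic ribosomal proteins in A549 and SUM159 cells given palbociclib, indisulam or both. They were taken by symbol: protein-coding genes on the autosomes or X named RPL or RPS with a number, with or without a final A or X, together with RPLP0, RPLP1, RPLP2 and RPSA. This rule gave 77 genes of the 58676 gene identifiers in the data, 46 of the 60S large subunit and 31 of the 40S small subunit. All 77 passed the filter on low counts in both lines. A549 cells come from a human lung cancer and SUM159 cells from a triple-negative breast cancer. RNA from 16 libraries was sequenced, 2 for each line left untreated or given 2 µM palbociclib, 3 µM indisulam or the combination for 16 h. Palbociclib inhibits the cell cycle kinases CDK4 and CDK6, and indisulam brings the splicing factor RBM39 to the DCAF15 ubiquitin ligase, which leads to its degradation. A549 cells were grown in RPMI and SUM159 cells in DMEM/F12 with insulin and hydrocortisone, so line and medium cannot be told apart. The study calls its duplicates technical, and p-values then measure only the spread between these libraries. In bulk RNA, fewer cells of a kind and less RNA per cell cannot be told apart.

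The ribosome reads mRNA and makes protein, and each ribosomal protein is present once per particle, apart from the acidic stalk proteins RPLP1 and RPLP2, which bind RPLP0 as dimers. Messages of ribosomal proteins share a start made of a C and a run of pyrimidines, the 5′ terminal oligopyrimidine (TOP) tract, through which mTOR signalling controls their translation. Several ribosomal proteins act outside the ribosome. RPL5 and RPL11 bind MDM2 with 5S RNA, RPS6 is phosphorylated by S6 kinase, and ribosomal protein genes such as RPL13 and RPLP0 serve as reference genes in quantitative PCR. RPL13 was the reference gene of this study.

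The start of transcription in RefSeq (GRCh38.p14) was available for 62 of the 77 genes, in 77 windows. A start with C followed by at least 4 further C or T bases, read on the transcribed strand only, was found in 46 of these windows, or 59.7%. Over all 35116 windows of the same length the share was 4.07%. The windows below run from 10 bases before the annotated first base to 20 bases from it, with the unbroken C and T run from the first base in capitals. They are those of 10 genes whose values are given further on, 9 with such a start and RPL10A without, and for genes with several annotated starts the window with the longest run is shown.
RPL22 (chr1:6199576-6199605, minus strand): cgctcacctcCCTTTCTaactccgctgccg
RPL13A (chr19:49487598-49487627, plus strand): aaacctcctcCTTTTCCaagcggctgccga
RPL34 (chr4:108620566-108620595, plus strand): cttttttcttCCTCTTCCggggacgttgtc
RPL10 (chrX:154398367-154398396, plus strand): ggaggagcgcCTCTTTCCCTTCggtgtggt
RPS14 (chr5:150449720-150449749, minus strand): ccctcccactCTCTCTTTCCggtgtggagt
RPLP0 (chr12:120201092-120201121, minus strand): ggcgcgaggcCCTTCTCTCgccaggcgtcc
RPL13 (chr16:89560672-89560701, plus strand): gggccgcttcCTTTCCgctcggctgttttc
RPS6 (chr9:19380217-19380246, minus strand): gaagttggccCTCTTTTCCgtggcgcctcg
RPL21 (chr13:27251548-27251577, plus strand): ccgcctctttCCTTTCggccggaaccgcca
RPL10A (chr6:35468391-35468420, plus strand): aagacatgctagtctcttttccggttagcg
RPL22 and RPL13A were the genes that rose most in A549 with the combination, and RPL10A and RPLP0 those that fell most in SUM159. RPL3, RPL15 and RPS15, whose values are also given, have no such start in any of their windows, which are not shown. RPL10A has no such run at its annotated first base, although CTCTTTTCC lies a few bases further on in its window. The medians of genes with and without such a start lay close to each other. In A549 with the combination, the median log2 change was 0.22 for the 46 genes with such a start and 0.21 for the other matched genes, and in SUM159 it was -0.16 and -0.20.

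The line labels were checked against marker genes. KRT8 and KRT18, the simple epithelial keratins, lay at 3999 to 7131 counts per 1000000 (CPM) in A549 and at 343 to 807 CPM in SUM159. VIM, the mesenchymal intermediate filament, lay at 707 to 903 CPM in A549 and at 2883 to 3906 CPM in SUM159. EPCAM and CDH1 were at most 0.623 CPM in SUM159. The defining alveolar genes SFTPB and SFTPC had at most 4 counts in any A549 library, and ESR1 and PGR at most 27 in any SUM159 library. Of the other breast genes checked, ERBB2 lay at 103 to 143 CPM in A549 and at 92.8 to 152 CPM in SUM159. TRPS1 lay at 20.4 to 29.6 CPM in SUM159 and reached 32.2 CPM in A549. The ranges of ERBB2 and TRPS1 overlapped between the lines. GATA3 lay at 0.551 to 1.86 CPM in A549 and at 4.68 to 6.61 CPM in SUM159. CDKN2A, the gene of p16, was at 1.31 to 2.40 CPM in A549 and at most 0.0456 CPM in SUM159. The highest counts in a library were 56 and 1. The study describes A549 as p16 null and reports an increase of p16 in SUM159 on Western blots. CDKN2A RNA was thus higher in the line called p16 null, but counts of a gene do not measure p16 protein. The blots show a change with treatment within SUM159, after a longer time and at other doses than here. They are not a comparison between lines. Gene counts per library ran from 18306636 to 34075588, and the 77 genes received 911379 to 2017194 of them.

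In untreated A549 the ribosomal protein genes held 5.11% and 4.98% of all gene counts. The share was 5.54% and 5.92% after palbociclib, 5.69% and 5.69% after indisulam and 6.38% and 6.19% after the combination. Every treated A549 library was therefore above both untreated ones, and both combination libraries were above all single-drug libraries. In SUM159 the share was 4.95% and 4.98% untreated, 4.91% and 4.82% after palbociclib, 4.81% and 4.74% after indisulam and 4.81% and 4.88% after the combination. All treated SUM159 libraries were below both untreated ones, in a range that runs only from 4.74% to 4.98% over all 8. The difference from untreated was 1.24 percentage points in A549 and -0.118 in SUM159 with the combination. With 2 libraries against 2, an exact permutation test cannot go below a two-sided p of 0.333, so no p is given for these shares. When genes of mitochondrial DNA were left out of the total, the SUM159 difference became 0.0876 with the combination, 0.0329 with palbociclib and -0.0528 with indisulam, so its direction for palbociclib and the combination rests on the denominator. The share of alignments in no annotated feature also moved with treatment, from 4.02 to 4.57% in untreated A549 to 5.70 to 5.97% after indisulam, and from 3.89 to 3.99% in untreated SUM159 to 5.94 to 6.78% after the combination. Its part in the shares was not tested.

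**Figure D1:**
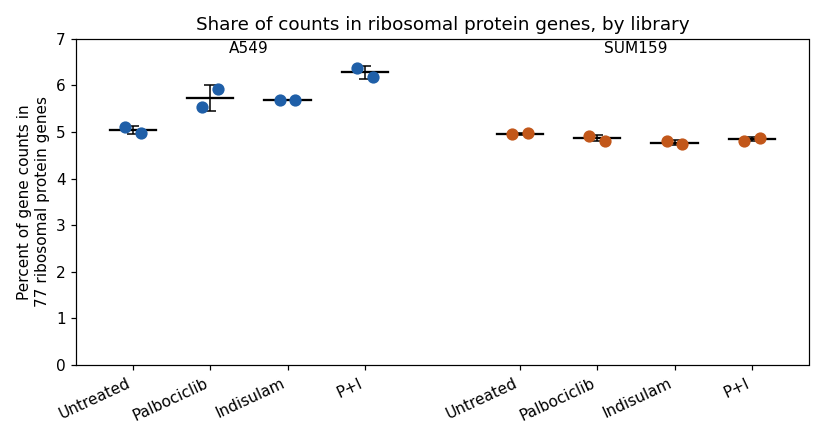
Percent of all gene counts that fell in the 77 ribosomal protein genes (vertical axis, from 0) in each library (points), by line and treatment, with the mean (line) and SD (bar) of 2 libraries. The A549 values climb from 4.98 and 5.11% to 6.19 and 6.38% after the combination, while the 8 SUM159 values lie between 4.74 and 4.98%.

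In A549 many ribosomal protein genes rose with palbociclib and most with indisulam or the combination, each by a small amount. With palbociclib 40 of 77 rose and 0 fell by edgeR's quasi-likelihood test at an adjusted p under 0.05, beside 22% of all 15744 genes tested that rose and 21.1% that fell. Of the 77, 45 passed upward and 0 downward at an unadjusted p under 0.05, and DESeq2 called 25 in all, none of them lower. With indisulam 50 rose and 1 fell, beside 23.3% and 25.9% of all genes. With the combination 59 rose and 1 fell, beside 27.4% and 30.4%. The median log2 change of the 77 genes was 0.12, 0.16 and 0.22 for palbociclib, indisulam and the combination, which is 1.09-fold, 1.12-fold and 1.16-fold, while the median of all genes was 0.03, 0.01 and 0.00. These 3 comparisons share the untreated libraries. The palbociclib count was the least stable: it was 15 without the second palbociclib library or without the second untreated library and 22 without the first untreated library. In the palbociclib group 67 of the 77 genes were higher in the second library, with a median difference of 0.10 on the log2 scale, against at most 0.03 in size in the other A549 groups. The indisulam count was 30 without the second untreated library, and the combination count stayed between 49 and 61 with any library left out.

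Both subunits took part in A549. With the combination 34 of 46 large subunit genes and 25 of 31 small subunit genes rose, with medians of 0.21 and 0.24. With palbociclib these counts were 24 and 16, and with indisulam 28 and 22. In all, 32 genes rose with each of the 3 treatments, beside 6.18% of all genes, and 11 passed the test with none, beside 24.1%. Among the 11 are RPL11, RPLP1 and RPS3, and the 3 comparisons share the untreated libraries.

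RPL22, a large subunit protein that also binds RNA outside the ribosome, had the largest increase of A549 with palbociclib and with the combination. Its level was 89.3 and 80.9 CPM untreated, 110 and 119 CPM after palbociclib, 111 and 114 CPM after indisulam and 136 and 138 CPM after the combination. The treated libraries did not overlap the untreated ones, and the combination lay above both single drugs. The log2 change was 0.43 ± 0.05 for palbociclib (SE, n = 2 against 2, adjusted p = 1.84e-05). It was 0.40 ± 0.06 for indisulam (adjusted p = 3.69e-05), and for both together 0.69 ± 0.05 (adjusted p = 6.93e-08). In SUM159 the level was 85.2 and 82.3 CPM untreated, 89.1 and 87.6 CPM after palbociclib, 99.6 and 104 CPM after indisulam and 99.2 and 102 CPM after the combination. RPL22 was thus among the few ribosomal protein genes that rose in SUM159, by 0.28 ± 0.04 after indisulam (adjusted p = 4.52e-05) and 0.27 ± 0.04 after both drugs (adjusted p = 3.83e-05), with all alternative scalings giving the same direction. The palbociclib value of 0.08 ± 0.04 did not pass (adjusted p = 0.149), except with total-count scaling, where it was 0.18.

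RPL13A, RPL15 and RPL10, core proteins of the large subunit, rose with the combination in A549 as well. RPL13A was at 1652 and 1608 CPM untreated and at 2393 and 2298 CPM after the combination, a log2 change of 0.52 ± 0.04 (adjusted p = 1.01e-07). It was at 2169 and 2166 CPM after indisulam, a change of 0.41 ± 0.04 (adjusted p = 2.68e-06), and its groups did not overlap. RPL15 was at 803 and 768 CPM untreated and at 1079 and 1061 CPM after the combination, a change of 0.45 ± 0.04 (adjusted p = 1.92e-07). RPL10, which joins the 60S particle late in its assembly, and RPL3, which lies near the peptidyl transferase centre, were the next largest increases with palbociclib. RPL10 was at 853 and 827 CPM untreated and at 948 and 1125 CPM after palbociclib, a change of 0.30 ± 0.06 (adjusted p = 0.00136). Its 2 palbociclib libraries differed more from each other than its 2 untreated ones. RPL3 was at 1383 and 1373 CPM untreated and at 1632 and 1769 CPM after palbociclib, a change of 0.30 ± 0.04 (adjusted p = 4.41e-05). Reads of RPL10 may be shared with DNASE1L1 on the opposite strand, which with an unnamed gene covers 53.7% of its main transcript, since the strand setting of the counting is not stated.

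The decreases in A549 were few. RPL12, a protein of the stalk base, fell with indisulam, from 669 and 647 CPM to 621 and 588 CPM, a change of -0.12 ± 0.04 (adjusted p = 0.0211). With total-count scaling it was -0.10 and did not pass (adjusted p = 0.0565), nor did it without the second indisulam library, at -0.08, or without the first untreated library, at -0.09.

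The counts of 5 genes are uncertain, because other annotated genes share much of their exons on the same strand and shared reads are not counted for either. Among them are RPL17, RPL26, RPL36A and RPS10, and the shared part covers at least 40% of the main transcript in each. In untreated cells these 5 genes had at most 42.7 CPM in A549 and 47.6 CPM in SUM159, while the other 72 had at least 76.2 and 62.5 CPM. RPL36A rose in A549 with indisulam, from 4.9 and 6.9 CPM to 8.6 and 10.3 CPM, by 0.69 ± 0.17 (adjusted p = 0.00429). It did not pass without the second indisulam library, at 0.55, or without the first untreated library, at 0.45. In SUM159 RPL36A had 8.5 and 7.0 CPM untreated, 10.0 and 10.4 CPM after palbociclib, 12.6 and 13.5 CPM after indisulam and 11.4 and 9.9 CPM after the combination. All 3 changes passed, at 0.39 ± 0.11 (adjusted p = 0.00661), 0.74 ± 0.11 (adjusted p = 2.94e-05) and 0.45 ± 0.11 (adjusted p = 0.00181) in that order. When counts of its pseudogenes were added, the palbociclib and combination changes were 0.07 and 0.08 and did not pass. They also did not pass without the second untreated library, at 0.26 and 0.32. RPS10 rose in SUM159 with indisulam, from 1.9 and 1.2 CPM to 3.0 and 3.3 CPM, by 1.00 ± 0.21 (adjusted p = 7.81e-04), and with both drugs by 0.76 ± 0.21 (adjusted p = 0.00464), which did not pass without the second untreated library. Without these 5 genes the counts of the other 72 were 40, 48 and 59 higher in A549, and 50, 46 and 66 lower in SUM159.

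In SUM159 most ribosomal protein genes lay lower after treatment relative to the other genes, but the count depended on how libraries were scaled. With palbociclib 51 of 77 fell and 1 rose, beside 29% of all 16080 genes tested that fell and 25.5% that rose, and with total-count scaling 18 fell and 4 rose. With indisulam 46 fell and 3 rose, beside 24.9% and 21.9% of all genes, and with total-count scaling 15 fell and 6 rose. With the combination 67 fell and 3 rose, beside 33.1% and 32.2%, and with total-count scaling 18 fell and 6 rose. Under total-count scaling 55.2%, 46.6% and 66.0% of all genes were called in either direction with palbociclib, indisulam and the combination. The median log2 change of the 77 genes was -0.13, -0.10 and -0.18, which is 0.913, 0.930 and 0.885 of untreated, and with total-count scaling it was -0.03, -0.05 and -0.03. That scaling moved the median of all SUM159 genes by 0.11 with palbociclib and 0.15 with the combination, and by less than 0.1 with indisulam. The main scaling, the trimmed mean of M-values (TMM), places the median gene near 0, so these changes are relative to the typical gene, while the share of counts held by the 77 genes was nearly flat. In A549 total-count scaling gave 55, 57 and 66 higher and 0, 0 and 1 lower, so the direction there was the same under both. Of all A549 genes 43.8%, 49.4% and 58.7% were then called in either direction. The indisulam count in SUM159 was 15 without the second indisulam library and 24 without the first untreated library. The combination count stayed between 58 and 69 lower with any library left out. The few increases were also unsteady: without the second untreated library 0 rose with palbociclib and 1 with the combination, and without the first 2 rose with palbociclib.

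**Figure D2:**
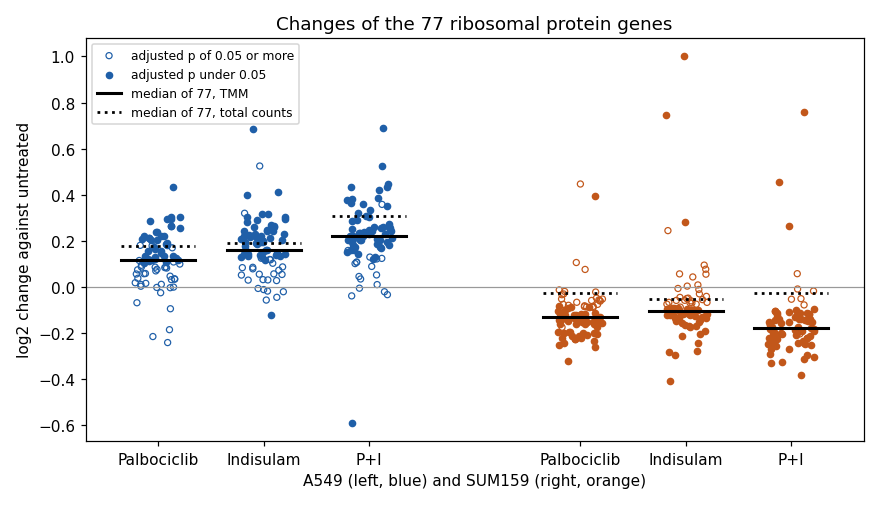
log2 change against untreated (vertical axis) of each of the 77 ribosomal protein genes (points; filled where the adjusted p was under 0.05), by line and treatment, with the median under TMM scaling (solid line) and under total-count scaling (dotted line). The A549 medians are above 0 under both scalings, and the SUM159 medians of -0.13, -0.10 and -0.18 under TMM move to -0.03, -0.05 and -0.03 under total counts.

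Genes of both subunits fell in SUM159 under TMM scaling, and the difference between subunits was not tested. With palbociclib 33 of 46 large subunit genes and 18 of 31 small subunit genes fell, with indisulam 26 and 20, and with the combination 41 and 26. With total-count scaling the combination counts were 10 and 8. In all, 32 genes fell with each of the 3 treatments under TMM scaling, beside 11.2% of all genes, and the 3 comparisons share the untreated libraries.

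RPLP0, the stalk protein that anchors RPLP1 and RPLP2, had the largest decrease of SUM159 with indisulam. It was at 1623 and 1646 CPM untreated, 1566 and 1516 CPM after palbociclib, 1227 and 1238 CPM after indisulam and 1291 and 1314 CPM after the combination. The indisulam and combination libraries lay below all others. The change was -0.41 ± 0.03 after indisulam (adjusted p = 6.26e-08) and -0.33 ± 0.03 after both drugs (adjusted p = 2.39e-07), and with total-count scaling -0.35 and -0.18, both still called. With palbociclib it was -0.09 ± 0.03 (adjusted p = 0.0439), a call lost under DESeq2, with RLE size factors, with no filter on low counts, with pseudogene counts added, with the replicate block and when any SUM159 library other than the first palbociclib one was left out, and of the other sign, 0.02, with total-count scaling. In A549 RPLP0 was at 2389 and 2291 CPM untreated, 2582 and 2839 CPM after palbociclib, 2302 and 2321 CPM after indisulam and 2653 and 2699 CPM after the combination. It rose with palbociclib, by 0.21 ± 0.05 (adjusted p = 0.00176), and with both drugs, by 0.19 ± 0.05 (adjusted p = 0.00220). The indisulam value of -0.02 ± 0.05 did not pass (adjusted p = 0.771).

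RPL10A and RPL21, both of the large subunit, and RPL10 were the other large decreases in SUM159. RPL10A was at 624 and 614 CPM untreated, 508 and 510 CPM after indisulam and 473 and 477 CPM after the combination. Its groups did not overlap, and the changes were -0.28 ± 0.03 (adjusted p = 3.17e-06) and -0.38 ± 0.03 (adjusted p = 2.47e-08), or -0.23 and -0.23 with total-count scaling. RPL10 was at 1160 and 1205 CPM untreated and at 947 and 982 CPM after indisulam, a change of -0.29 ± 0.04 (adjusted p = 5.83e-06), and -0.24 with total-count scaling. RPL21 was at 486 and 475 CPM untreated and at 382 and 385 CPM after the combination, a change of -0.33 ± 0.04 (adjusted p = 5.19e-07). With palbociclib the largest decreases were those of RPS15, RPL18 and RPL8. RPS15, a small subunit protein near the decoding site, went from 252 and 248 CPM to 193 and 207 CPM, a change of -0.32 ± 0.04 (adjusted p = 1.76e-06). RPL18 changed by -0.26 ± 0.04 (adjusted p = 7.15e-06) and RPL8 by -0.25 ± 0.03 (adjusted p = 7.00e-06).

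RPL13, the reference gene of the study's quantitative PCR, moved in both lines with some treatments, by less than most genes named above. The drug-treated cells for which the study describes this use were given indisulam alone, for a longer time than here. With indisulam alone the RPL13 change was not called in A549. In SUM159 it was called under TMM scaling but not with total-count scaling. In A549 it was at 785 and 768 CPM untreated, 806 and 876 CPM after palbociclib, 820 and 794 CPM after indisulam and 907 and 844 CPM after the combination. Only the combination passed, at 0.17 ± 0.05 (adjusted p = 0.00628), and it did not without the first combination library, at 0.12, or without the second untreated library, at 0.16. The palbociclib value was 0.11 ± 0.05 (adjusted p = 0.0645), or 0.17 and called with total-count scaling or without the first palbociclib library, and the indisulam value 0.06 ± 0.05 (adjusted p = 0.356). With no filter on low counts the A549 palbociclib value was 0.10 and called. In SUM159 RPL13 was at 635 and 612 CPM untreated, 528 and 533 CPM after palbociclib, 589 and 557 CPM after indisulam and 569 and 584 CPM after the combination. The treated libraries were all below the untreated ones. The change was largest after palbociclib, at -0.23 ± 0.04 (adjusted p = 4.80e-05). It was -0.12 ± 0.04 after indisulam (adjusted p = 0.0131) and -0.11 ± 0.04 after both drugs (adjusted p = 0.0144). With total-count scaling they were -0.13, -0.07 and 0.04, of which only the first was called. The indisulam and combination calls were also lost when the first untreated library was left out, both at -0.09, without the second indisulam library at -0.08 and without the first combination library at -0.10.

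**Figure D3:**
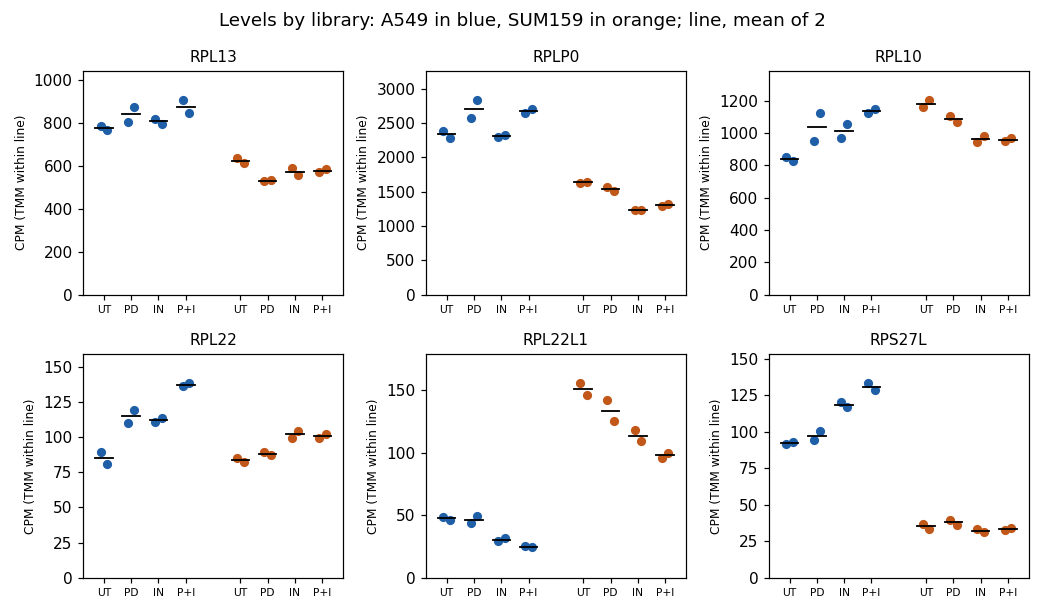
Level in CPM (vertical axes from 0; scaled by TMM within each line, so heights are compared within a line) of RPL13, RPLP0, RPL10 and RPL22 and of the paralogs RPL22L1 and RPS27L in each library (points) with the mean of 2 (lines), A549 in blue and SUM159 in orange, for untreated (UT), palbociclib (PD), indisulam (IN) and the combination (P+I). RPL22 is highest with the combination in A549, at 136 and 138 CPM, where RPL22L1 is lowest, at 25.2 and 24.4 CPM.

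RPS18, another small subunit gene used as a reference, and RPS6, the S6 kinase substrate, differed from each other in A549. RPS18 was at 575 and 571 CPM untreated, 626 and 751 CPM after palbociclib, 667 and 688 CPM after indisulam and 723 and 693 CPM after the combination. All treated libraries lay above the untreated ones, with changes of 0.27 ± 0.06 (adjusted p = 0.00321), 0.24 ± 0.06 (adjusted p = 0.00525) and 0.30 ± 0.06 (adjusted p = 7.67e-04) in that order. RPS6 was at 1945 and 1935 CPM untreated and at 2147 and 2160 CPM after the combination, a change of 0.15 ± 0.04 (adjusted p = 0.00338). Its palbociclib and indisulam values of 0.04 and 0.05 did not pass, although the first was 0.10 and called with total-count scaling. In SUM159 under TMM scaling RPS6 changed by -0.12 ± 0.04 with palbociclib (adjusted p = 0.0133) and -0.15 ± 0.04 with both drugs (adjusted p = 0.00181), and with total-count scaling by -0.01 and -0.0016, neither called. The palbociclib call was also lost without the second palbociclib library, at -0.10, or without the first untreated library, at -0.08. With no filter on low counts the RPS6 palbociclib value was -0.09 and not called. RPS18 changed by -0.15 ± 0.04 with the combination (adjusted p = 0.00190) and by 0.00023 with total-count scaling. Its indisulam value of -0.10 ± 0.04 (adjusted p = 0.0368) lost its call when any of the indisulam or untreated libraries was left out, at -0.07 to -0.12, and also with total-count scaling, at -0.04, with no filter on low counts, at -0.09, and with the replicate block, at -0.10 (adjusted p = 0.0588).

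RPL5 and RPL11, the pair that binds MDM2 with 5S RNA, did not move alike in A549. RPL5 was at 739 and 727 CPM untreated, 773 and 773 CPM after palbociclib, 879 and 837 CPM after indisulam and 896 and 895 CPM after the combination. Its palbociclib value of 0.08 did not pass except with total-count scaling, at 0.14. It rose with indisulam, by 0.23 ± 0.04 (adjusted p = 1.96e-04), and with both drugs, by 0.29 ± 0.04 (adjusted p = 1.35e-05). RPL11 was at 639 and 647 CPM untreated and at 646 and 681 CPM after the combination, so its groups overlapped, and its values of 0.03, -0.04 and 0.05 did not pass. With total-count scaling the last was 0.13 and called, while without the second combination library it was -0.0015. In SUM159 RPL5 was at 1098 and 1093 CPM untreated, 971 and 910 CPM after palbociclib, 1083 and 1063 CPM after indisulam and 921 and 928 CPM after the combination. It was lower with palbociclib, at -0.22 ± 0.04 (adjusted p = 7.40e-05), and with both drugs, at -0.25 ± 0.04 (adjusted p = 1.71e-05), and both were called with total-count scaling, at -0.12 and -0.10. RPL11 changed by -0.12 ± 0.03 with palbociclib (adjusted p = 0.00688) and -0.15 ± 0.03 with both drugs (adjusted p = 8.51e-04), but by -0.01 and -0.0031 with total-count scaling, neither called. With no filter on low counts its palbociclib value was -0.09 and not called.

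The lines were compared directly by the difference of their changes, SUM159 minus A549, in a fit of all 16 libraries. With the combination 68 of the 77 genes differed downward and 1 upward, beside 11.8% and 19.1% of all 17764 genes, 30.9% together. The median difference was -0.32 for the 77 genes and 0.10 for all genes, or -0.41 and 0.01 both with RLE size factors and by DESeq2. With indisulam 58 differed downward and 0 upward, beside 6.97% and 8.04% of all genes, 15% together, with medians of -0.23 and 0.02. With palbociclib 30 differed downward and 1 upward, beside 3.15% and 9.65%, 12.8% together, with medians of -0.16 and 0.08. The palbociclib count downward was 61 with RLE size factors and 62 by DESeq2, beside 13.2% and 9.89% of all genes called in either direction. Both had a median of -0.26 for the 77 genes and -0.02 for all genes. The difference was negative for 72, 74 and 74 of the 77 genes with palbociclib, indisulam and the combination, and its median was negative under every scaling tried. The palbociclib count was between 13 and 71 with 1 library left out, and rose to 57 or more when any A549 library was left out, the indisulam and combination libraries included. It fell to 13 without the second palbociclib library of SUM159, and to 19 and 16 without its first and second untreated libraries. The indisulam count was 36 without the first indisulam library of A549, and 38 without its second untreated library or without the second indisulam library of SUM159. With the combination 53 genes rose in A549 and fell in SUM159, beside 3.17% of the 14122 genes tested in both lines, and with total-count scaling the SUM159 falls were fewer, as given above.

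**Figure D4:**
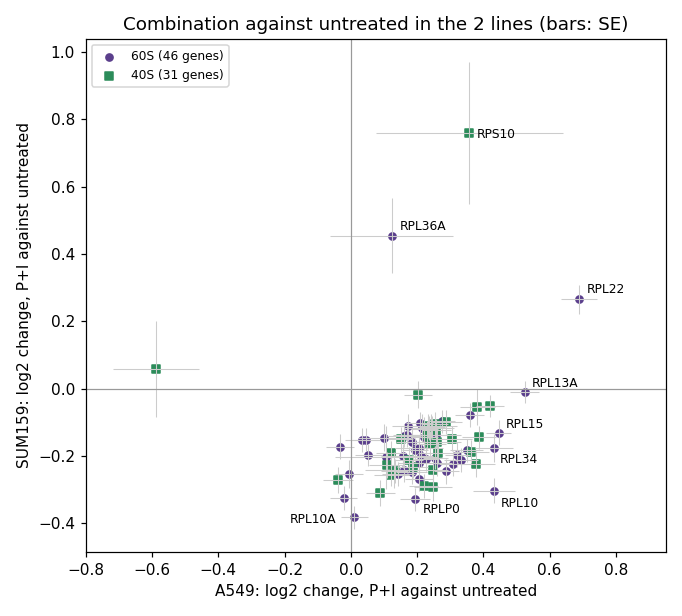
log2 change with the combination against untreated in A549 (horizontal axis) and SUM159 (vertical axis) for each of the 77 ribosomal protein genes under TMM scaling, with SE bars, large subunit genes as circles and small subunit genes as squares. Most genes lie right of 0 and below 0 (with total-count scaling 18 rather than 67 are called lower in SUM159), with RPL22, RPL36A and RPS10 above.

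RPL10 had the largest difference between lines with indisulam and with the combination, at -0.56 ± 0.08 (adjusted p = 2.77e-05) and -0.67 ± 0.08 (adjusted p = 6.03e-07). Under palbociclib it was -0.33 ± 0.08 (adjusted p = 0.00603), after RPL13A at -0.37 ± 0.06 (adjusted p = 5.97e-05). RPS14, whose loss is known from the 5q- syndrome, differed by -0.45 ± 0.07 with indisulam (adjusted p = 1.59e-04). It was at 481 and 466 CPM untreated and 568 and 584 CPM after indisulam in A549, and at 552 and 565 CPM and 486 and 509 CPM in SUM159. RPL34 differed by -0.54 ± 0.07 with the combination (adjusted p = 4.51e-06). It was at 124 and 117 CPM untreated and 160 and 165 CPM after the combination in A549, and at 235 and 234 CPM and 201 and 214 CPM in SUM159. RPL36A with palbociclib, at 0.68 ± 0.22 (adjusted p = 0.0445), was an upward difference and is among the 5 uncertain genes. The RPL36A call was lost under 6 alternatives, with pseudogene counts added (0.22, adjusted p = 0.291), with DESeq2 (0.56, adjusted p = 0.136), with RLE size factors (0.58, adjusted p = 0.0818), with total-count scaling (0.63, adjusted p = 0.0721), with TMM without ribosomal and translation genes (0.65, adjusted p = 0.0558) and with the replicate block (0.68, adjusted p = 0.0528). With 1 library left out it held only without the first untreated library of either line or without either SUM159 combination library. RPL13 differed by -0.25 ± 0.06 with palbociclib (adjusted p = 0.00828), by -0.22 ± 0.06 for both drugs together (adjusted p = 0.00964), while -0.18 ± 0.06 for indisulam did not pass (adjusted p = 0.0602).

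The combination was also set against each drug. In A549 30 of the 77 genes were higher and 4 lower than with palbociclib, beside 23.7% and 27.8% of all genes (51.5% together), and 12 higher and 2 lower than with indisulam, beside 18.6% and 20.1% (38.8% together). The second pair was 37 and 2 with total-count scaling, beside 39.7% of all genes called in either direction. In SUM159 7 were higher and 26 lower than with palbociclib, beside 23.4% and 24.9% (48.3% together). With total-count scaling these were 14 and 15, beside 49.1% of all genes called in either direction. Against indisulam 0 were higher and 34 lower by edgeR, beside 24.9% and 28% (52.9% together). DESeq2 called 24, beside 40.3% of all genes, and 1 was higher and 38 lower at an unadjusted p under 0.05. With total-count scaling the edgeR counts turned to 8 higher and 2 lower, beside 53.6% of all genes called in either direction. The direction of the second SUM159 comparison thus rests on the scaling. Several single libraries carried these counts. Against palbociclib 21 genes were called in A549 without its first palbociclib library, and in SUM159 20 without its first palbociclib library and 15 without its first combination library. Against indisulam 7 were called in A549 without the second indisulam library, and 12 and 15 in SUM159 without the first indisulam or the first combination library. In A549 the same count was 27 without the first combination library and 23 without either palbociclib library.

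Whether the combination departed from additivity, the sum of both drugs' own log2 changes, was tested for each gene. In A549 0 genes departed from the sum by edgeR at an adjusted p under 0.05, beside 3.53% of all genes, with 14 at an unadjusted p under 0.05, 0 by DESeq2 and 5 with no filter on low counts. In SUM159 5 departed upward and 1 downward, beside 2.22% and 2.16%, or 4.38% in all, with 18 at an unadjusted p under 0.05 and 9 by DESeq2. The count was 2 with no filter on low counts and 3 with the replicate block. The 6 are RPL13, RPS15, RPLP2, RPS2 and RPL8 upward and RPL36A downward, named after their values were seen apart from RPL13. Leaving out single libraries gave between 0 and 8 calls in SUM159 and between 0 and 6 in A549. In SUM159 the calls were 0 without the second indisulam or the second combination library, 1 without either untreated library, 2 without the first indisulam library and 3 without the first combination library. In A549 they were 6 without the first palbociclib library and 3 without the first combination library.

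Before any drug the lines differed in these genes about as often as in all genes, with no common direction. Of the 77, 33 were higher in untreated SUM159 and 28 lower, beside 38.3% and 38% of all genes, 76.3% together. The differences ran from -1.13 for RPLP1 to 0.83 for RPL34, which were named after their values were seen. Among the genes followed above, RPS6, RPLP0 and RPL13 were lower in SUM159, by -0.88 ± 0.04, -0.65 ± 0.04 and -0.45 ± 0.04, and RPS18, RPL5 and RPL11 higher, by 0.65 ± 0.05, 0.45 ± 0.04 and 0.38 ± 0.04. All 6 passed the test, with adjusted p at most 2.65e-09. Per kilobase of main transcript the median level of the 77 genes was 663 CPM in untreated A549 and 793 CPM in untreated SUM159, with ranges of 2.25 to 2229 and 2.70 to 2193. With the length of all merged exons these medians were 168 and 172 CPM per kilobase, so the gap between these medians depends on which length is used. These CPM were scaled within each line. The length does not enter a gene's own difference between lines, whose median over the 77 genes was 0.02 on the log2 scale.

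Genes that travel with the ribosome were taken from lists. FAU encodes a ubiquitin-like domain fused to the small subunit protein RPS30, which the naming rule does not take in. FAU rose by 0.21 ± 0.05 with indisulam in A549 (adjusted p = 0.00299) and changed by -0.17 ± 0.04 with the combination in SUM159 (adjusted p = 8.94e-04), or -0.02 and not called with total-count scaling. Of the 16 tested translation genes with TOP starts or related roles, 10 rose and 4 fell in A549 with the combination. Of all genes 27.4% rose and 30.4% fell there. In SUM159 1 rose and 12 fell, beside 32.2% and 33.1% of all genes. With total-count scaling these were 4 and 11, beside 66.0% of all genes called in either direction. EIF4B, an initiation factor that stimulates the helicase EIF4A, rose by 0.75 ± 0.04 in A549 (adjusted p = 3.41e-10), and EEF1A1, the elongation factor that brings aminoacyl-tRNA, by 0.37 ± 0.04 (adjusted p = 1.03e-06). HNRNPA1, a splicing regulator, fell by 0.84 on the log2 scale (SE 0.03, adjusted p = 8.03e-13) and NPM1, a nucleolar chaperone, by 0.69 (SE 0.04, adjusted p = 7.97e-11) in SUM159.

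Paralogs of ribosomal proteins were counted apart, and no test of a paralog against its parent was run. RPL22L1, the paralog of RPL22, was at 48.8 and 46.6 CPM untreated, 43.5 and 49.1 CPM after palbociclib, 29.4 and 31.6 CPM after indisulam and 25.2 and 24.4 CPM after the combination in A549. The indisulam and combination libraries lay below all others, with changes of -0.64 ± 0.07 (adjusted p = 3.99e-06) and -0.94 ± 0.07 (adjusted p = 5.28e-08), while RPL22 rose in the same libraries. In SUM159 RPL22L1 went from 156 and 146 CPM to 118 and 110 CPM after indisulam and 96.0 and 99.8 CPM after the combination, changes of -0.41 ± 0.06 (adjusted p = 1.29e-05) and -0.63 ± 0.06 (adjusted p = 3.08e-08). These 4 calls held with total-count scaling, at -0.62, -0.85, -0.35 and -0.48. RPS27L, a paralog of RPS27 that p53 induces, was at 91.4 and 92.8 CPM untreated, 121 and 117 CPM after indisulam and 133 and 129 CPM after the combination in A549. It rose by 0.37 ± 0.05 (adjusted p = 1.91e-05) and 0.51 ± 0.05 (adjusted p = 3.68e-07), and RPS27 rose there too, by 0.15 ± 0.04 (adjusted p = 0.0119) and 0.26 ± 0.04 (adjusted p = 1.86e-04). In SUM159 its values of -0.14 and -0.07 did not pass, and the difference between lines was -0.50 ± 0.08 under indisulam (adjusted p = 1.60e-04) and -0.52 ± 0.08 under both drugs (adjusted p = 2.92e-05). RPL7L1, a nucleolar homolog of RPL7, fell in SUM159 with the combination by 0.70 on the log2 scale (SE 0.04, adjusted p = 2.65e-11), and RPL7 by 0.21 (SE 0.04, adjusted p = 5.53e-05). RPL26L1 rose in A549 with indisulam by 0.34 ± 0.07 (adjusted p = 0.00109), and RPL26 by 0.26 ± 0.08 (adjusted p = 0.0193). Of the 6 paralogs tested, 2 rose and 3 fell in A549 with the combination, beside 27.4% and 30.4% of all genes. In SUM159 0 rose and 3 fell, beside 32.2% and 33.1%.

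Ribosome biogenesis genes, which build the particle but are not part of it, moved downward in both lines. Of 36, 25 fell and 0 rose in A549 with palbociclib, beside 21.1% and 22% of all genes. With indisulam 16 fell and 6 rose, beside 25.9% and 23.3%, and with the combination 27 fell and 2 rose, beside 30.4% and 27.4%. In SUM159 the counts were 32 and 0 with palbociclib, beside 29% and 25.5%. They were 21 and 1 with indisulam, beside 24.9% and 21.9%, and 31 and 0 with the combination, beside 33.1% and 32.2%. The medians were -0.28, -0.12 and -0.48 in A549 and -0.43, -0.16 and -0.70 in SUM159, and stayed negative with total-count scaling, at -0.39 and -0.55 with the combination. NOLC1, a nucleolar chaperone of snoRNA particles, went from 421 and 431 CPM to 203 and 210 CPM after the combination in A549, a change of -1.04 ± 0.04 (adjusted p = 1.12e-11). TSR1, a 40S maturation factor, went from 267 and 276 CPM to 131 and 133 CPM in SUM159, a change of -1.04 ± 0.04 (adjusted p = 1.39e-13). The increases were small, with RRN3, an initiation factor of RNA polymerase I, at 0.25 ± 0.05 (adjusted p = 0.00120) and POLR1C, a subunit of RNA polymerases I and III, at 0.21 ± 0.07 (adjusted p = 0.0308) with indisulam in A549. In A549 given the combination, most genes of the ribosome's own proteins thus rose in the same libraries in which most of these assembly genes fell.

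Genes of the mitochondrial ribosome are encoded in the nucleus and serve another particle. In A549 16 of 77 rose and 29 fell with the combination, beside 27.4% and 30.4% of all genes, with a median of -0.04, or 0.05 with total-count scaling. In SUM159 7 of 78 rose and 57 fell, beside 32.2% and 33.1%, with a median of -0.31, or -0.16 with total-count scaling. MRPL39 had the largest decrease, -0.88 ± 0.05 in SUM159 with the combination (adjusted p = 2.56e-10), followed by MRPL17 at -0.75 ± 0.06 in A549 (adjusted p = 1.32e-07). MRPL53 rose by 1.17 ± 0.29 in A549 with indisulam (adjusted p = 0.00371) and MRPS24 by 1.14 ± 0.35 in SUM159 with the combination (adjusted p = 0.00871), both with wide errors.

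**Figure D5:**
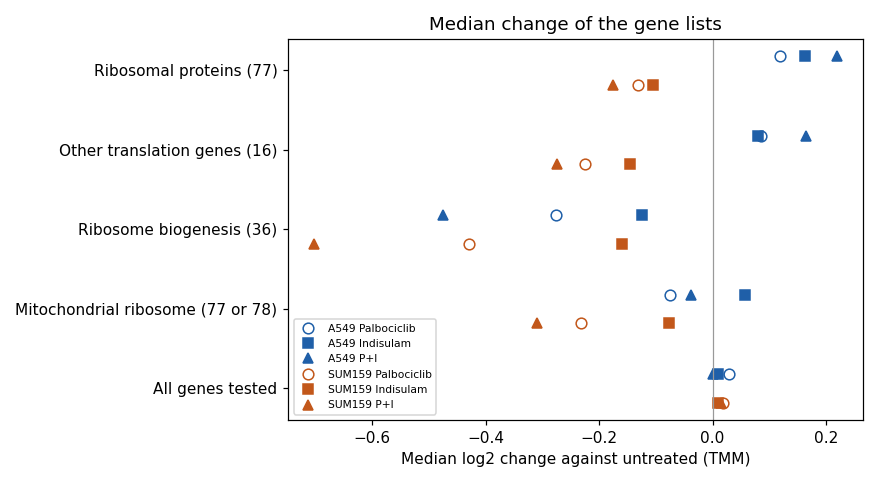
Median log2 change against untreated (horizontal axis, TMM scaling) of 4 gene lists and of all genes tested, by line (color) and treatment (shape). The ribosomal protein medians lie right of 0 in A549 and left of 0 in SUM159, where total-count scaling brings them to between -0.03 and -0.05, and ribosome biogenesis lies left of 0 in all 6 comparisons.

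All 77 genes have pseudogenes, 1587 in all among the files' identifiers, and reads that match both are not counted for either. Pseudogenes themselves held only 0.0192 to 0.0287% of gene counts. In untreated cells their counts were under 3% of the parent's for 96.1% of the 77 genes in each line, the exceptions being RPL17, RPL36A and RPS10, 3 of the 5 uncertain genes. Between 4.25 and 5.25% of alignments were not unique, and how many of these came from ribosomal protein messages was not tested.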

How the data were processed

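The deposited values were raw counts of read pairs per Ensembl gene, made by the authors, with 1 table per library and no normalization. Per the study's methods and the submitters' processing notes, stranded mRNA libraries were trimmed with SeqPurge, aligned to GRCh38 with HISAT2 2.2.1 and counted with HTSeq. The strand setting and annotation release of the counting are not given in the sources used here. Symbols, lengths and overlaps came from GENCODE 44, which matched 58207 of 58676 identifiers, and start windows from RefSeq GRCh38.p14.

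Counts were tested with edgeR 4.0.16 (R 4.3.3; filterByExpr, TMM, quasi-likelihood test, 1 coefficient per group), with 8 libraries per line (15744 genes in A549, 16080 in SUM159) and all 16 for differences between lines (17764 genes). P-values were adjusted over all genes by the method of Benjamini and Hochberg, with a threshold of 0.05. SE is the log2 change divided by the square root of F. CPM values were scaled by TMM, except in shares and markers. 3 counts correspond to 0.0880 to 0.164 CPM, a floor that covers counting error only. The procedure was tested on simulated counts. DESeq2 1.42.0, other scalings, no filter, added pseudogene counts, a replicate block and leaving out each library were the alternatives.

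Members and lists were chosen with earlier results of these data known. Genes named were RPL13, RPLP0, RPS18, RPL5, RPL11, RPS6 and RPL22, the 3 largest called increases and decreases per line and treatment changed one way in each pair of libraries with the same number, the 2 largest called differences between lines in each direction, and the 2 largest called increases and decreases of each other list. Sequences of proteins were not used here, and some genes that the rule names are not reported here.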

Additional observations from a re-analysis of the deposited data

Results flagged for a closer look

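The response of ribosomal protein genes differed between the lines by the test of the difference itself, an interaction in the fit of 16 libraries with edgeR's quasi-likelihood test. It was called for 31 of 77 genes with palbociclib, 58 with indisulam and 69 with the combination, beside 12.8%, 15% and 30.9% of all genes. The palbociclib count was not stable. It was 61 with RLE size factors and 62 by DESeq2, and moved widely when single libraries were left out. The largest differences, SUM159 minus A549 on the log2 scale, were those of RPL10 at -0.33, -0.56 and -0.67 for the 3 treatments, RPL13A at -0.37 with palbociclib, RPS14 at -0.45 with indisulam and RPL34 at -0.54 with the combination. RPL36A at 0.68 with palbociclib differed in the other direction, a call lost under 6 alternatives, DESeq2 and the replicate block among them. It has few counts, shares exons with another gene and has pseudogenes, and the cause of its low counts was not tested. Medium differed along with the line, and the 2 cannot be told apart.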

How the results depend on the processing

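With total-count scaling, the members called higher in SUM159 were 4 with palbociclib, 6 with indisulam and 6 with the combination, those called lower were 18, 15 and 18, and 10 were called for the combination against indisulam. In A549 it gave 0 lower with indisulam and 39 called for the combination against indisulam. The last count was 23 with RLE size factors and 23 with no filter on low counts. No filter also gave 30 lower in SUM159 with indisulam and 5 and 2 departures from additivity in A549 and SUM159. DESeq2 called 25 higher in A549 with palbociclib, and the difference between lines with palbociclib was called for 62 genes by DESeq2 and 61 with RLE size factors. The cause of these shifts was not tested. Leaving out the 5 genes with shared exons, an alternative added after seeing the data, gave 0 lower in A549 with the combination and 0, 1 and 1 higher in SUM159.

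The differences in share from untreated, in percentage points, became 0.770 in A549 with indisulam and 0.0329, -0.0528 and 0.0876 in SUM159 when genes of mitochondrial DNA were left out of the total. With the total divided by the TMM factor, added after seeing the data, they were 0.555 and 0.897 in A549 with indisulam and the combination and -0.465, -0.385 and -0.625 in SUM159.

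With 1 library left out, the A549 counts ran from 15 to 47 higher and 0 to 1 lower with palbociclib, from 30 to 55 and 0 to 1 with indisulam and from 49 to 61 and 1 to 1 with the combination. Those of SUM159 ran from 0 to 2 and 39 to 50, 3 to 4 and 15 to 48, and 1 to 3 and 58 to 69. Against palbociclib the combination gave 21 to 48 calls in A549 and 15 to 35 in SUM159, against indisulam 7 to 27 and 12 to 39, and for additivity 0 to 6 and 0 to 8. Differences between lines gave 13 to 71, 36 to 62 and 65 to 74 calls for the 3 treatments and 59 to 64 between untreated lines. Differences in share ran from 0.496 to 0.877, 0.585 to 0.712 and 1.14 to 1.34 in A549 and from -0.147 to -0.0484, -0.223 to -0.157 and -0.149 to -0.0875 in SUM159.

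With total-count scaling, RPLP0 changed sign in A549 with indisulam (0.011) and in SUM159 with palbociclib (0.020), RPS18 in SUM159 with palbociclib (0.092) and the combination (0.00023), RPL5 (0.024) and RPS6 (0.0056) in SUM159 with indisulam and RPL13 in SUM159 with the combination (0.037). RPS18 with palbociclib in SUM159 was also 0.013 with no filter and ran from -0.041 to 0.024 with 1 library left out. RPLP0 with indisulam in A549 then ran from -0.042 to 0.017, and RPL11 with the combination from -0.0015 to 0.085. Of 68 values of named genes, DESeq2 changed the call of 2, RLE size factors 2, TMM without ribosomal and translation genes 1, pseudogene counts 4 and total-count scaling 20 in call or sign. With no filter on low counts 4 calls were lost, 1 was gained and 1 value changed sign.

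The labels do not say whether libraries with the same replicate number shared a batch, and deviations of same-numbered libraries correlated between -0.114 and 0.114. With the replicate block the departures from additivity in SUM159 were 3. The other counts stayed within 1.5 times, for example 37 higher in A549 and 47 lower in SUM159 with palbociclib, and 3 of 68 values of named genes lost their call. With numbers crossed, the combination against palbociclib gave 33 calls in A549 and 35 in SUM159.

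Counting depth limits RPS10, RPL36A and RPL17 most, with 24 counts in the lowest library.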
